A study of Mus musculus with 19 samples.

Results

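The respiratory chain and the ATP synthase of the inner mitochondrial membrane were followed through 85 nuclear genes, taken by symbol from the 24348 genes counted in perigonadal fat, the depot beside the epididymis and testis of male mice. They comprised 36 genes of complex I (symbols starting Ndufa, Ndufb, Ndufc, Ndufs or Ndufv, without the assembly factors), 4 of complex II (Sdha to Sdhd), 9 of complex III (Uqcr genes and Cyc1), Cycs for cytochrome c, 18 of complex IV (Cox4i, Cox5, Cox6, Cox7 and Cox8 genes, with Ndufa4 and Ndufa4l2) and 17 starting Atp5. Cox7a1 and Cox8b were left out of the members. Atp5s and Atp5sl carry an Atp5 symbol but are not subunits of the enzyme, and were counted because the symbol rule takes them. The symbol rule itself uses no measured value.

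All mice were of the strain C57BL/6, and no transgene or deletion is named. Of the 19 libraries, 8 came from mice on a 60% high-fat diet (HFD; titles ALO for fed and ALOneg for fasted) and 11 from mice overfed on Ensure (titles OIO and OIOneg). HFD fed (n = 4) and Ensure fed (n = 6) tissue was taken at peak weight with food, and HFD fasted (n = 4) and Ensure fasted (n = 5) tissue after 24 hours without food. Age is not given in the labels used here, and diet below stands for the whole model. Libraries are called by the numbers of their titles. Nothing in the labels ties every library to its own mouse, so each p-value here rests on library-to-library spread, which may be technical.

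Complexes I and II take electrons from NADH and succinate, complex III passes them from ubiquinol to cytochrome c, and complex IV passes them to oxygen. Complexes I, III and IV pump protons, and complex V, the ATP synthase, uses the returning protons to make ATP. In white fat the chain serves the energy needs of fat storage and release, while brown fat holds far more of it. The mitochondrial genome encodes the catalytic core of several complexes; the members are the nuclear partners.

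Counts assigned to genes ran from 12.82 to 22.55 M per library. The adipocyte markers Adipoq (1110 to 4140 CPM, counts per M counts after TMM scaling) and Plin1 (448 to 1580 CPM) were present in all 19. The 15 markers of epididymis and testis summed to 12.6 to 809.7 CPM in the fed libraries, to 15.9 to 425.8 CPM in HFD fasted libraries and to 31.2 to 11610 CPM in Ensure fasted libraries. Ensure fasted 5 held the 11610 CPM, together with 8483 CPM of 8 smooth muscle markers against at most 1082 CPM elsewhere, and had the lowest adipocyte sum, 12210 CPM. HFD fasted 28 also stood apart, through its short transcripts (described below). All HFD libraries ran on lane 7. Ensure fed libraries ran on lane 5 (replicate 1), lane 7 (replicate 18) and lane 6 (the other 4), and Ensure fasted libraries on lane 5 but for replicate 17 on lane 6, so lane and feeding nearly coincide in the Ensure arm.

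Promoter windows were found for 69 of the 85 members in RefSeq (GRCm38.p6), and the 250 bases before the start are shown for 4 genes. Per complex, this was the member called lower with the smallest p in Ensure fasting whose window end was found at a GENCODE transcript start. These were Ndufb3, Uqcrfs1 and Atp5g3, and Cycs was added. Complexes II and IV gave none, and Uqcrc2 and Cyc1, with smaller p than Uqcrfs1, had no window. Capitals mark matches to any of 6 letter motifs, read on both strands.

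Atp5g3 (chr2:73911327-73911576, minus strand): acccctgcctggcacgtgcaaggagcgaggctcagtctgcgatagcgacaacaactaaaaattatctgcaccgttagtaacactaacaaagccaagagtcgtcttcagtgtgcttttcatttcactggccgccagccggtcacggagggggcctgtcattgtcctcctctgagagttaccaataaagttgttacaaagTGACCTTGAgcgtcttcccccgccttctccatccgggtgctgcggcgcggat

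Uqcrfs1 (chr13:30545317-30545566, minus strand): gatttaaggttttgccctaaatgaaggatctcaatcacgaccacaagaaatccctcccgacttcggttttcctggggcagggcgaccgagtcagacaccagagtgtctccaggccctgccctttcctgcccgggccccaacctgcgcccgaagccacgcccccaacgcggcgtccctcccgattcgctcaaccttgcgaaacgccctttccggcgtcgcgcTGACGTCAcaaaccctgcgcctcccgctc

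Ndufb3 (chr1:58586147-58586396, plus strand): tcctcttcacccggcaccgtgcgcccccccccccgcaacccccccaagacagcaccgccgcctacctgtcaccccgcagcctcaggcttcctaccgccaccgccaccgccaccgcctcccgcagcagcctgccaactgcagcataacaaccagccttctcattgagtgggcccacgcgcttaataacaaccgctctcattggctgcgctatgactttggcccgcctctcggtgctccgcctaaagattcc

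Cycs (chr6:50566570-50566819, minus strand): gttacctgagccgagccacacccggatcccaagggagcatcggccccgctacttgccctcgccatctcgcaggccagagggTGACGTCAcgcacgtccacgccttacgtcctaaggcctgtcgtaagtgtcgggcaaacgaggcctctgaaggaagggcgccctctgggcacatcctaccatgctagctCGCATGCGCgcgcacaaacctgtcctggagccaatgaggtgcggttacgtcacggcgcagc

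The Atp5g3 window holds the ERRA motif TCAAGGTCA on the opposite strand, starting 52 bases before the gene's start (position -52). In Uqcrfs1 the palindromic CRE letters TGACGTCA stand at position -29, and in Cycs they stand at -169 with the NRF1 letters GCGCATGCG, on the opposite strand, at -61. The end of the Cycs window was not found at the start of a GENCODE transcript, so its positions are less certain. None of the 6 motifs was found in the Ndufb3 window, which says only that these letters are not there. Over the 69 members, the NRF1 letters occurred in 7 windows (10.1%) against 2.19% of 17492 protein-coding genes, the CRE letters in 5 (7.25% against 2.2%), the YY1 letters AANATGGCG in 4 (5.8% against 1.56%), the ETS letters CCGGAAGT of GABPA in 3 (4.35% against 4.26%), the ERRA letters in 1 (1.45% against 0.36%) and TATAAA in 6 (8.7% against 13.7%). Median GC content was 56.4% in the members' windows and 55.2% in all. Of the 13 matched members called lower in Ensure fasting, 0 held the NRF1 letters, 2 the CRE letters and 1 the ERRA letters. A match is a description of letters and not of binding.

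Levels differed widely between members. Per length (CPM per kb of transcript, means over the 19 libraries), Atp5b, the catalytic beta subunit of the synthase, was the highest at 718. Cox8a followed at 428.8, Cox4i1 at 405.2, Atp5g3 at 390.4 and Ndufa4 at 352.3, so that 3 of the top 5 were complex IV genes. The highest in complex I was Ndufb9 at 190.1, in complex III Uqcrh at 185.5 and in complex II Sdha, the flavoprotein subunit that oxidizes succinate, at 147.6. Summed over all members, CPM was 8436 ± 796 (SD, n = 4) with HFD and food, 7670 ± 530 (n = 4) in HFD fasted, 9716 ± 343 (n = 6) with Ensure and food, and 8303 ± 827 (n = 5) in Ensure fasted libraries. Every Ensure fasted library (7298 to 9323 CPM) was below every Ensure fed one (9396 to 10387 CPM), while the HFD groups overlapped.

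Some members could hardly be counted. Ndufs5 had 1 count over all 19 libraries and was the 1 member of 85 that did not pass the filter on low counts; the other 84 were tested. Cycs, the electron carrier between complexes III and IV, was at a mean of 6.34 CPM, and 28.5% of its 50-base stretches also occur in 76 other genes of the reference. For Atp5l the shared part was 84.8%, for Atp5o 45.6%, for Uqcrb 43.4%, for Atp5g2 38.3%, for Atp5f1 37.6%, for Cox5a 32%, for Ndufb6 31.6% and for Uqcrc2 24.2%. Reads that align in several places were set aside in the deposited counts (20.67 to 27.7% of each library), so levels of these genes are uncertain; how many of those reads belonged to the members was not tested.

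The Ensure comparison asks how 24 hours without food changes the tissue after overfeeding on Ensure. In it 16 of 84 tested members fell and 1 rose (edgeR's quasi-likelihood test, Benjamini-Hochberg adjusted p under 0.05 over 16015 genes). That is 19% of members called lower, beside 9.77% of all genes tested, and 1.19% called higher beside 10.6%. The fallen members spanned 0.29 to 0.67 on the log2 scale: 7 of 35 in complex I, 1 of 4 in complex II, 4 of 9 in complex III, 1 of 18 in complex IV and 3 of 17 in complex V. The log2 fold change was below 0 for 68 of 84 members, beside 39.5% of all genes, and its median was -0.21 against 0.11 for all genes. Fed and fasted libraries did not overlap for 20 members, all lower when fasted (9.28% of all genes tested were lower and 5.68% higher without overlap). At an unadjusted p under 0.05, 32 members were lower and 4 higher, beside 14.5% and 21.5%. In whole tissue, fewer cells of a type and less RNA per cell cannot be told apart.

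**Figure D1:**
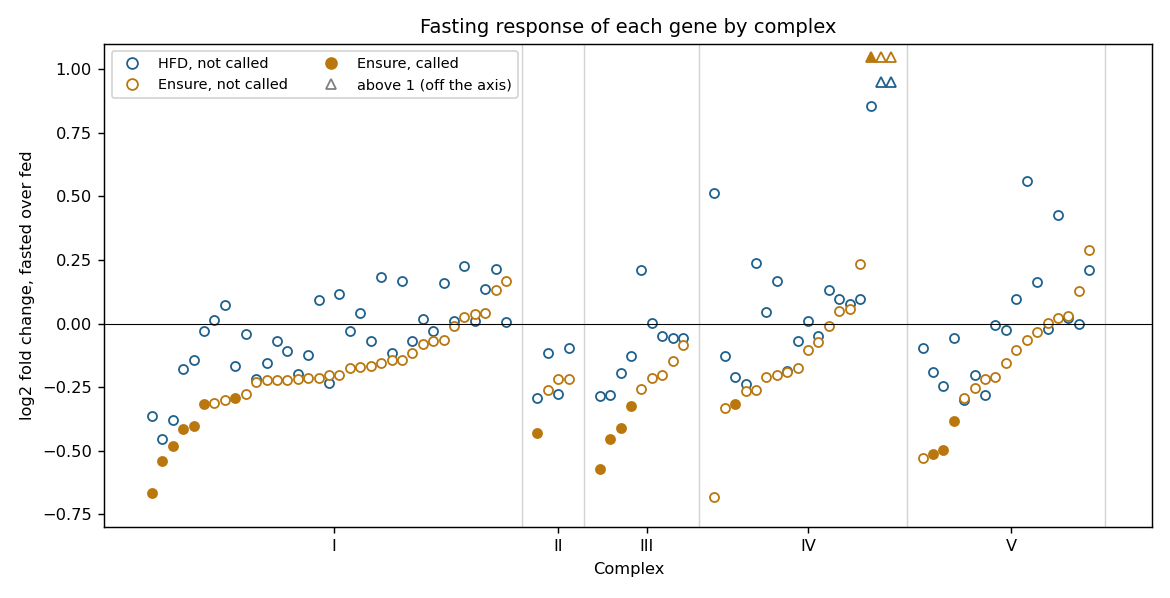
Log2 fold change of fasted over fed libraries for 83 tested genes, by complex and ordered by the Ensure value, in HFD (blue) and Ensure (brown); filled marks passed an adjusted p of 0.05, triangles lie above 1, and Cycs is not drawn. The 16 filled brown circles lie below 0 and the 1 filled triangle, in complex IV, is Cox6b2.

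Which libraries enter decides how many members are called. Without the 5 libraries rich in epididymis and testis markers (Ensure fasted 2 and 5, Ensure fed 10 and 12, HFD fasted 24), 4 of 82 members were lower (4.88%, beside 4.13% of all genes), the median was -0.11 and 69 of 82 stayed below 0. Without HFD fasted 28, which is in neither group but adds to the shared spread, 43 of 84 were lower (51.2%, beside 15.4%), and with lane as a term 3 were (beside 3.12%). Uqcrc2 was called under all of these fits. Cyc1 and Atp5g3 lost their calls without 8 libraries, the 5 above and 3 chosen as rich in the epithelial gene Cdh16 (Ensure fed 16, HFD fasted 26, HFD fed 21), and Ndufb3 lost its call with the lane term. The other 12 falls and Cox6b2 lost theirs under each of 3 settings: the lane term, leaving out the 5 and leaving out the 8. Ndufv2 and Ndufab1 also lost them without any one of Ensure fed 1, 10 or 12 or Ensure fasted 2, and Ndufv2 without Ensure fasted 17. Within lane 5 (1 fed against 4 fasted libraries) the median was -0.21 and 70 of 84 members were below 0; within lane 6 (4 against 1) these were -0.16 and 67 of 84. The tract values given above move with the Ensure fasted group through replicates 2 and 5, and the smooth muscle values mostly through replicate 5. In Ensure fasting all 8 smooth muscle markers and 2 of 6 stromal progenitor markers were called higher, beside 10.6% of all genes. Of 9 adipocyte markers 1 was called lower and 0 higher (9.77% and 10.6% of all genes), with a median of -0.23. In HFD fasting 0 of the 9 were called (1.03% and 0.187% of all genes), with a median of -0.30. Median adipocyte sums were 27250 CPM fed and 27620 CPM fasted in Ensure, and 26260 and 23060 CPM in HFD. The part of these markers in the members' change was not tested.

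Complex III carried the highest share of calls. Uqcrc2, a core subunit on its matrix side, was at 192, 208 and 222 CPM (lowest, median and highest) in Ensure fed libraries and at 124, 134, 151, 152 and 143 CPM in Ensure fasted 2, 5, 7, 8 and 17. All 5 fasted values were below all fed values. The log2 fold change was -0.57 ± 0.066 (SE; edgeR adjusted p = 4.35e-05), and the call was kept under each of 22 alternatives (-0.64 to -0.47). Cyc1, the cytochrome c1 haem protein that hands electrons to cytochrome c, ran from 155 to 185 CPM when fed and was 116, 107, 142, 121 and 131 CPM when fasted, again without overlap. It changed by -0.45 ± 0.079 (adjusted p = 0.000923). Uqcrfs1, the Rieske iron-sulfur protein of complex III, fell by 0.41 and Uqcrc1, the other core subunit, by 0.32. The remaining 5 members, small subunits, were not called, at -0.26 to -0.09; among them Uqcrh, the hinge protein, ran from 92.7 to 101 CPM fed and 71.4 to 93.3 CPM fasted.

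**Figure D2:**
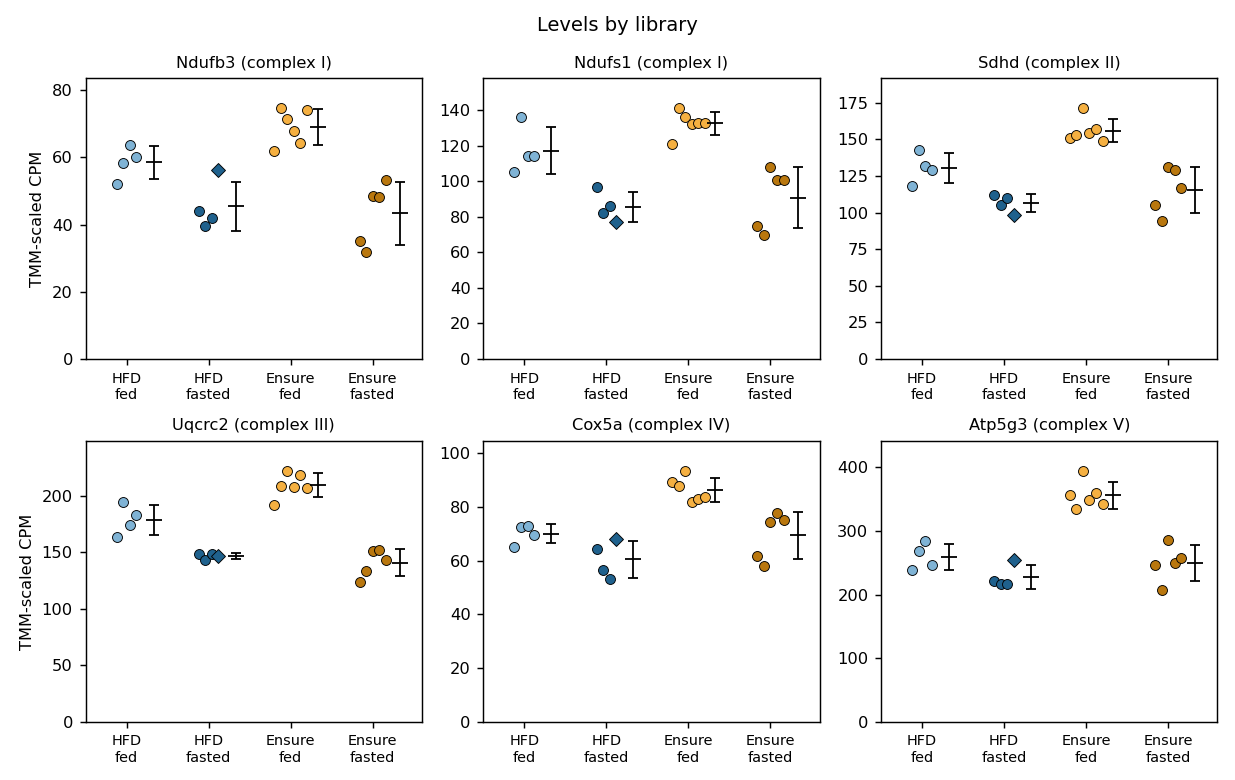
TMM-scaled CPM in each library for Ndufb3, Ndufs1, Sdhd, Uqcrc2, Cox5a and Atp5g3, with the mean and SD of each group (bars) and HFD fasted 28 as a diamond. In each panel the Ensure fasted points lie below the Ensure fed points.

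Complex I calls fell on both its arms. Ndufb3, an accessory subunit of the membrane arm, ran from 61.9 through 69.5 to 74.5 CPM in Ensure fed libraries and was 35.2, 31.7, 48.4, 48.3 and 53.3 CPM in the fasted ones. The tract-rich replicates 2 and 5 were the lowest, yet the other 3 fasted values were also below all fed values. Its change, -0.67 ± 0.13 (adjusted p = 0.00174), was the largest fall among the members called lower. Ndufs1, the iron-sulfur subunit at the tip of the matrix arm, ran from 121 to 141 CPM fed and was 74.8, 69.6, 108, 101 and 101 CPM fasted (-0.54 ± 0.11, adjusted p = 0.00277). Ndufs4 fell by 0.41, Ndufb6 by 0.40, Ndufv2 by 0.32 and Ndufa10 by 0.29. Ndufab1, the acyl carrier protein shared with mitochondrial fatty acid synthesis, fell by 0.48, but its groups overlapped. Ndufb9 was at 145 to 175 CPM fed and 123 to 145 CPM fasted and was not called (-0.20, adjusted p = 0.0553).

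In complex II, Sdhd, a membrane anchor subunit, was at 149 to 171 CPM in Ensure fed libraries and at 105, 94.3, 131, 129 and 117 CPM in the fasted ones, with no overlap. It changed by -0.43 ± 0.083 (adjusted p = 0.0019). Sdha, at 445 to 504 CPM fed, was 359 and 316 CPM in Ensure fasted 2 and 5 but 469, 428 and 451 CPM in 7, 8 and 17. The other anchor, Sdhc, was likewise 124 and 103 CPM in replicates 2 and 5 against 146 to 153 CPM in the other fasted libraries. Sdha and Sdhc were at -0.22 each and Sdhb at -0.26, none of them called.

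Complex V calls were Atp5g3, Atp5f1 and Atp5o. Atp5g3 encodes the membrane ring subunit c, was at 334 to 394 CPM in Ensure fed libraries and at 247, 207, 286, 249 and 258 CPM in the fasted ones. The groups were apart, and the change was -0.51 ± 0.083 (adjusted p = 0.000536). Atp5f1, subunit b of the peripheral stalk, ran from 133 to 162 CPM fed and was 87.1, 86.4, 118, 114 and 103 CPM fasted (-0.50 ± 0.10, adjusted p = 0.00245). Atp5o, the stalk's link to the catalytic head, fell by 0.38. The most abundant member, Atp5b, was at 1530 to 1730 CPM fed and at 1270, 1000, 1710, 1400 and 1500 CPM fasted. Its groups overlapped, through replicate 7, and it was not called (-0.22, adjusted p = 0.254); Atp5a1, the alpha subunit, was at -0.29 (adjusted p = 0.0562), with no overlap. The subunit c ring has 3 genes that encode the same mature protein: Atp5g3 stood at 390.4 CPM per kb, Atp5g1 at 2.76 and Atp5g2 at 1.32, and only Atp5g3 was called.

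Of the 5 complexes, complex IV had the smallest share called lower, 5.56%. Cox5a, which lies on its matrix side, ran from 81.7 to 93.3 CPM in Ensure fed libraries and was 61.9, 57.9, 74.3, 77.7 and 75 CPM in the fasted ones. Those groups did not overlap (-0.32 ± 0.085, adjusted p = 0.0152). Cox8a, the highest complex IV gene per length, was at 224 to 259 CPM fed and 208 to 255 CPM fasted (-0.07, adjusted p = 0.606). Moving Ndufa4 and Ndufa4l2 to complex I, where their symbols place them, left 1 of 16 lower in complex IV and 7 of 37 in complex I.

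The member that rose, Cox6b2, is the testis isoform of a complex IV subunit. It was at 0.821 to 2.07 CPM in Ensure fed libraries and at 10.7, 5.7, 1.32, 1.38 and 2.18 CPM in Ensure fasted 2, 5, 7, 8 and 17, so the high values were those of the 2 libraries rich in tract markers. The change was 1.72 ± 0.55 (adjusted p = 0.0351), and the call ended under 10 of 22 alternatives, among them leaving out either of those libraries or any one of Ensure fed 1, 9, 12 and 18. Among the testis and germ cell isoforms, Cox8c reached 10.1 CPM and Cox7b2 3.22 CPM, both in Ensure fasted 2. Prm1, a sperm chromatin gene, reached 117 CPM in that group. In HFD the highest Cox6b2 (6.65 CPM), Cox8c (5.39 CPM) and Cox7b2 (1.3 CPM) values were all in HFD fasted 24, another tract-rich library. In the other libraries Cox8c was at most 1.55 CPM and Cox7b2 at most 0.75 CPM, and many were at 0, which allows up to 0.139 to 0.198 CPM in those libraries (3 counts of each).

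The other complex IV isoforms showed the somatic pattern. Cox6b1 was at 163.1 CPM on average beside 2.65 CPM for Cox6b2, and Cox6a1 at 197.4 CPM beside 0.627 CPM for the muscle form Cox6a2. Per length, Cox4i1 was at 405.2 and the hypoxia-linked Cox4i2 at 6.32 CPM per kb. Cox4i2 was at 3.69 to 4.41 CPM in HFD fed and 2.74 to 3.76 in HFD fasted tissue, 5.22 to 6.63 in Ensure fed and 3.36 to 6.19 in Ensure fasted tissue, with no call in any comparison (adjusted p of 0.126 among fed libraries). Ndufa4l2, a paralogue of Ndufa4, stood at 14.4 CPM per kb and was not called in either fasting comparison. Cox7a2l, a supercomplex factor, was at 0.23 in Ensure fasting (adjusted p = 0.0645), with its highest level, 113 CPM, in Ensure fasted 5.

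In HFD, the same question about 24 hours without food gave 0 calls by edgeR among the 84 members, beside 1.03% of all genes called lower and 0.187% higher. At an unadjusted p under 0.05, 10 members were lower and 0 higher (9.07% and 5.76% of all genes). The median was -0.04 (0.06 for all genes), and 49 of 84 were below 0, beside 42% of all genes. Complex medians were -0.03 for I, -0.20 for II, -0.06 for III, 0.09 for IV and -0.02 for V. Fed and fasted libraries did not overlap, lower when fasted, for 6 members, beside 6.21% of all genes; 0 members were higher without overlap (2.24%). Limma voom with library quality weights called 34 lower and 1 higher and DESeq2 2 lower, against 0 with edgeR. These fits called more of all genes too: voom 11.3% lower and 1172 of 16015 higher, and DESeq2 2.95% lower.

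Single members had HFD values of the same sign as in Ensure. Uqcrc2 was at 164, 195, 174 and 183 CPM in HFD fed 21, 22, 25 and 27 and at 149, 143, 149 and 147 CPM in HFD fasted 23, 24, 26 and 28. The groups did not overlap, but the change of -0.28 ± 0.077 had the lowest adjusted p of all members and did not pass (edgeR, 0.0852). Ndufs1 was at 105, 136, 114 and 114 CPM fed and 96.8, 82.3, 86.3 and 76.9 CPM fasted (-0.45 ± 0.13, adjusted p = 0.099). Sdhd was at 118, 143, 132 and 129 CPM fed and 112, 105, 110 and 98.2 CPM fasted (-0.29, adjusted p = 0.159). For Cyc1 the fed values were 118, 150, 130 and 136 CPM and the fasted ones 111, 115, 103 and 110 CPM (-0.28, adjusted p = 0.157). In these 4 genes every fasted library was below every fed library, which held for 6 of 84 members, beside 6.21% of all genes. Of other genes called in Ensure, Atp5g3, Ndufb3, Atp5f1 and Cox5a overlapped in HFD. They were at 255, 56.1, 120 and 68 CPM in HFD fasted 28 and at 239, 52, 107 and 65.2 CPM in HFD fed 21. Of the 16 members that fell in Ensure, 16 had a value below 0 in HFD, and over all members 47 were below 0 in both diets and 14 above 0 in both.

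HFD fasted 28 went against its group. Taking the median over members of the deviation from each gene's mean (log2), HFD fasted 23, 24 and 26 were at -0.22, -0.21 and -0.26 and replicate 28 at 0.26, the highest of all 19 libraries. Against the mean of the other 3 it was higher for 60 of 71 members with at least 10 CPM and a known length. The ratio fell with transcript length (Spearman's rho = -0.57 across these 71 members, which share the library and are not independent). For the 36 members of at most 763 bases the median log2 ratio was 0.57, and for the 35 longer ones 0.24. Uqcrb was at 1.24, Ndufb7 at 1.22 and Atp5e at 1.09, while the long Atp5a1, Atp5b and Sdha were at -0.47, -0.58 and -0.78. Sdha was at 242 CPM there, while replicates 23, 24 and 26 had 404 to 432 CPM. Over all 288 genes with at least 10 CPM and at most 763 bases the median deviation in this library was 0.46, and over 9688 longer genes 0.02.

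**Figure D3:**
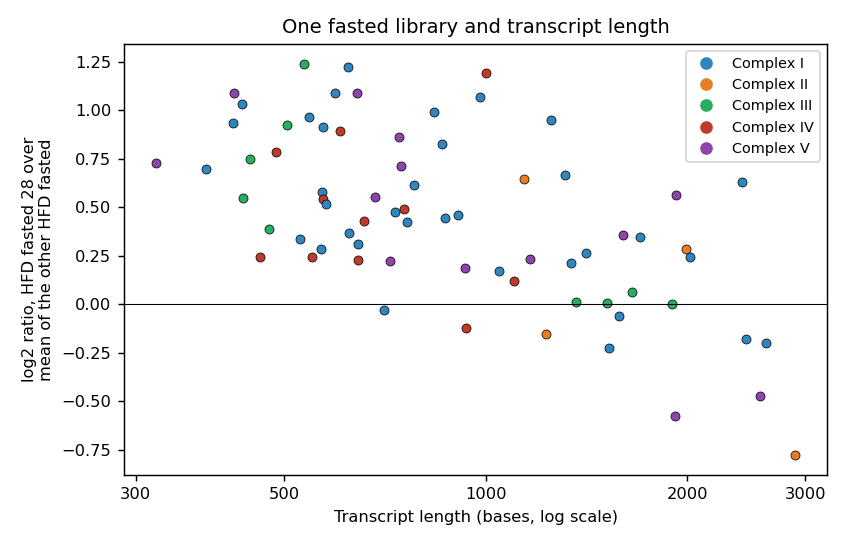
Log2 ratio of HFD fasted 28 to the mean of the other 3 HFD fasted libraries against transcript length (log axis) for 71 members, coloured by complex. Short members lie mostly above 0, up to 1.24, and the longest, Sdha, at -0.78.

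Without HFD fasted 28 the HFD median was -0.17 and 77 of 84 members were below 0 (beside 45.1% of all genes). At an unadjusted p under 0.05 there were 27 lower, and 0 were called (0.268% of all genes were called lower). Complex medians were then -0.19 for I, -0.19 for II, -0.19 for III, -0.10 for IV and -0.17 for V, so complex IV, which stood above 0 with the library, was below it without. RNA quality of single libraries is not given in the labels used here, and its part in this was not tested.

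**Figure D4:**
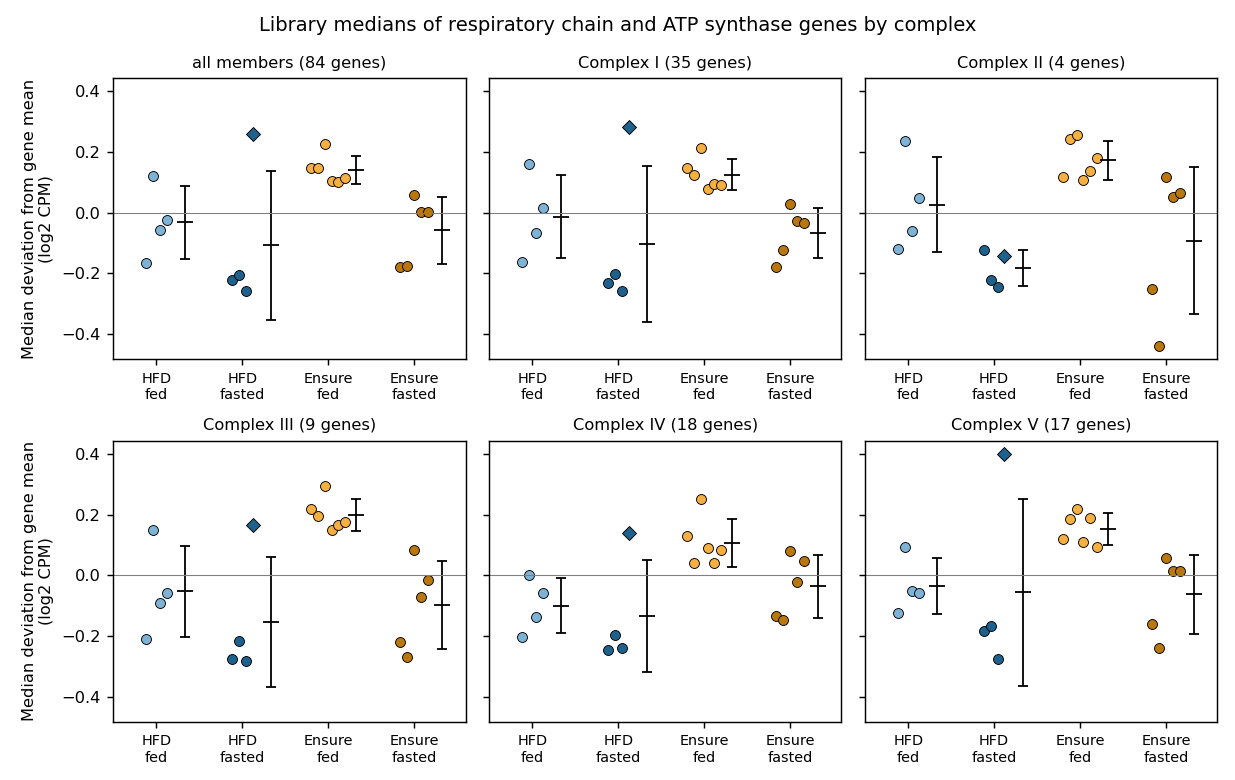
Median over members, in all and by complex, of the deviation of log2 CPM from each gene's mean over the 19 libraries; points are libraries, bars the mean and SD of each group, and the diamond is HFD fasted 28. Ensure fed libraries lie between 0.10 and 0.23 for all members, and the diamond at 0.26 stands above the other HFD fasted libraries.

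Whether the response to fasting differed between the diets was tested by the difference of the responses (Ensure minus HFD). It called 0 of 84 members (0% of all genes were called in either direction). At an unadjusted p under 0.05, 2 members were lower and 0 higher (2.92% and 4.79% of all genes). They were Uqcrc2, at -0.29 ± 0.10 (adjusted p = 0.542), and Atp5g3, at -0.32 ± 0.13 (adjusted p = 0.569). DESeq2 called 1 lower (0.219% of all genes) and voom with quality weights 1 higher (876 of 16015 genes). The median difference was -0.13, with 70 of 84 members below 0 (45.5% of all genes), but 0.10 with voom's weights. These weights were lowest for HFD fasted 28 (0.0907) and Ensure fasted 5 (0.135). In edgeR without HFD fasted 28 the median was still below 0, at -0.06. What changed the sign with voom was not tested. The calls in Ensure and their absence in HFD therefore do not show that the diets differ.

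Between the diets at peak weight, 3 members were higher in Ensure fed than in HFD fed libraries and 0 lower, beside 2.09% and 2.17% of all genes. Atp5g3 was at 239, 269, 284 and 246 CPM in HFD fed libraries and at 334 to 394 CPM in Ensure fed ones, with no overlap (0.46 ± 0.089, edgeR adjusted p = 0.00883). Uqcrfs1 was at 111, 144, 120 and 121 CPM in HFD and at 148 to 169 CPM in Ensure (0.37 ± 0.087, adjusted p = 0.0243). Cyc1 (0.34 ± 0.084, adjusted p = 0.0301) was at 118 to 150 CPM in HFD and 155 to 185 CPM in Ensure. The median over members was 0.18 (all genes -0.04), 15 of 84 were below 0 (55.7% of all genes), and all 9 complex III members were above it. At an unadjusted p under 0.05, 22 were higher and 0 lower (8.65% and 9.97% of all genes), and 22 were higher and 1 lower without overlap of the groups (5.89% and 7.37%). Lane differs between these groups. With lane as a term 0 members were called, but so were nearly no genes at all (0 lower and 2 higher of 16015). Within lane 7, which holds 4 HFD fed libraries and Ensure fed 18, the median was 0.14. Without HFD fasted 28, 29 were called higher, beside 1002 of all 16406 genes. Once the 8 libraries high in tract or Cdh16 markers were left out, 0 were, beside 115 of 15257. Cyc1 also lost its call without HFD fed 25 or Ensure fed 1.

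Markers of other cells moved in the same fed comparison. Of 8 macrophage markers 2 were called lower in Ensure and 0 higher, beside 2.17% and 2.09% of all genes. Their median was -0.91, and the 8 summed to 2009 to 4151 CPM in HFD fed and 1653 to 2936 CPM in Ensure fed libraries. Gpnmb, a gene of lipid-laden macrophages, was at 312 to 1180 CPM with HFD and 18.8 to 91.3 CPM with Ensure, and Trem2, a macrophage lipid receptor, at 41.3 to 120 and 6.31 to 20.5 CPM. Mrc1 went the other way, with medians of 264 CPM in HFD fed and 338 CPM in Ensure fed libraries. Csf1r differed little, with medians of 372 and 341 CPM. Of 6 stromal progenitor markers 2 were called lower and 2 higher, and their sums were 3880 to 5238 CPM in HFD fed and 5229 to 8457 CPM in Ensure fed libraries. Among fasted libraries 2 macrophage markers were lower in Ensure, and 1 stromal marker was lower and 3 were higher. Of all genes, 1.19% were called lower and 1.63% higher there. The part of these markers in the members' values was not tested.

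Atp5g3, Uqcrfs1 and Cyc1 therefore appear in 2 comparisons that use the same Ensure fed libraries, and their values in them are not separate results: -0.51, -0.41 and -0.45 for fasting in Ensure stand beside 0.46, 0.37 and 0.34 for diet in the fed state. Among fasted libraries, Ensure against HFD gave 0 calls (1.19% of all genes were lower and 1.63% higher), with 4 members higher and 1 lower at an unadjusted p under 0.05 (10.7% and 9.59%) and 1 higher and 0 lower without overlap (2.51% and 1.48%). The median was 0.05, and 34 of 84 were below 0, beside 47.7% of all genes. The lowest adjusted p was that of Ndufb9 (0.27, adjusted p = 0.0727), at 106, 114, 111 and 108 CPM in HFD fasted and 123, 126, 145, 134 and 137 CPM in Ensure fasted libraries, which do not overlap. DESeq2 called 1 member higher and voom with quality weights 44, beside 728 and 2073 of all 16015 genes. No lane holds fasted libraries of both diets, so lane and diet cannot be told apart here.

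Cycs had one of the larger values in Ensure fasting but was not called. It was at 6.46, 8.18 and 10.1 CPM (lowest, median and highest) in Ensure fed libraries and at 3.64, 3.8, 8.19, 6.72 and 4.87 CPM in the fasted ones (-0.58 ± 0.27, adjusted p = 0.13). HFD fed libraries had 5.59, 4.94, 7.31 and 6.09 CPM and HFD fasted ones 4.41, 2.87, 3.97 and 9.09 CPM. The groups overlapped in both diets, and the top HFD fasted value was again that of replicate 28.

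Cox7a1 and Cox8b, isoforms typical of muscle and brown fat, share complex IV with the members. Cox7a1 was at 4.82 to 6.57 CPM in Ensure fed and 3.36 to 4.76 CPM in Ensure fasted libraries (-0.49, adjusted p = 0.0454), and 0.67 higher in Ensure fed than in HFD fed ones (adjusted p = 0.0425). Cox8b was 1.40 higher among fed libraries (adjusted p = 0.0245), at 12 to 23.5 CPM against 4.94 to 7.66 CPM, and was not called in Ensure fasting (-0.58, adjusted p = 0.177). The 8 brown fat markers, which include both, summed to 58.5 to 102.8 CPM in Ensure fed libraries, and to 28.4 to 61.1 CPM (HFD fed), 24.7 to 37.9 CPM (HFD fasted) and 19.9 to 41.6 CPM (Ensure fasted) in the others. Ucp1, the uncoupling protein that defines brown fat, was at 0.0513 to 18.4 CPM in Ensure fed libraries with a median of 0.173. In HFD fed libraries its median was higher, 0.569 CPM. Medians of Cidea (4.41 against 3.69 CPM) and Ppargc1a (10.5 against 6.39 CPM) were also higher in HFD fed libraries. Those of Cox7a1, Cox8b, Elovl3, Otop1 (10.8 against 19.2 CPM) and Dio2 (1.43 against 15.6 CPM) were lower there. Of these markers 3 of 8 were called lower in Ensure fasting (9.77% of all genes) and 3 of 8 higher in Ensure fed than HFD fed tissue (2.09% of all genes); their part in the members' values was not tested.

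Genes that build and feed the chain were counted from lists, to be read beside the 9.77% of all genes called lower and 10.6% called higher in Ensure fasting. In Ensure fasting 7 of 13 complex I assembly factors fell, led by Acad9 (-0.85), Ndufaf4 (-0.70), Tmem126b (-0.65) and Ecsit (-0.61). So did 7 of 13 factors for complexes II, III and V, among them the synthase factor Atpaf2 (-0.74) and the complex III factor Uqcc1 (-0.52). Of 18 complex IV factors, 8 fell, including the haem A enzymes Cox10 (-0.77) and Cox15 (-0.54). In the citric acid cycle 8 of 13 fell: Idh3a by 1.04 and citrate synthase, Cs, by 0.84 were the largest. Mitochondrial ribosomal proteins fell in 35 of 77 cases, Mrpl12 by 0.94 and Mrps22 by 1.00, and import genes in 12 of 23, with 1, Tomm34, higher at 0.33. The import list takes every Timm and Tomm symbol, and so also holds Tomm6os, an opposite-strand transcript and no import component, which was not called. Among carriers and other points of electron entry 6 of 14 fell, among them the ADP/ATP carriers Slc25a4 (-0.33) and Slc25a5 (-0.47). In transcription and mitochondrial DNA upkeep 2 of 16 fell (12.5%, near the share of all genes). None of the other 7 lists held a gene called higher.

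In HFD fasting, calls were 1 of 13 for complex I assembly (Acad9, -0.59), 1 of 13 for the citric acid cycle (Cs, -0.58) and 2 of 77 for the mitochondrial ribosome, all lower, and 0 for the other lists, beside 1.03% of all genes called lower. With 1 or 2 genes a list, these counts show little beyond that share. List medians lay between -0.10 and -0.46 in Ensure and between -0.03 and -0.28 in HFD, and all 13 citric acid cycle genes were below 0 in HFD. Without the 5 tract-rich libraries the Ensure counts were 3 and 2 of 13 for the first 2 assembly lists, 3 of 18 for complex IV factors, 4 of 13 for the cycle, 13 of 77 for the ribosome, 6 of 23 for import, 0 of 14 for carriers and 1 of 16 for transcription, beside 4.13% of all genes called lower. Their medians then ran from -0.14 to -0.32, while all genes stood at 0.01.

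**Figure D5:**
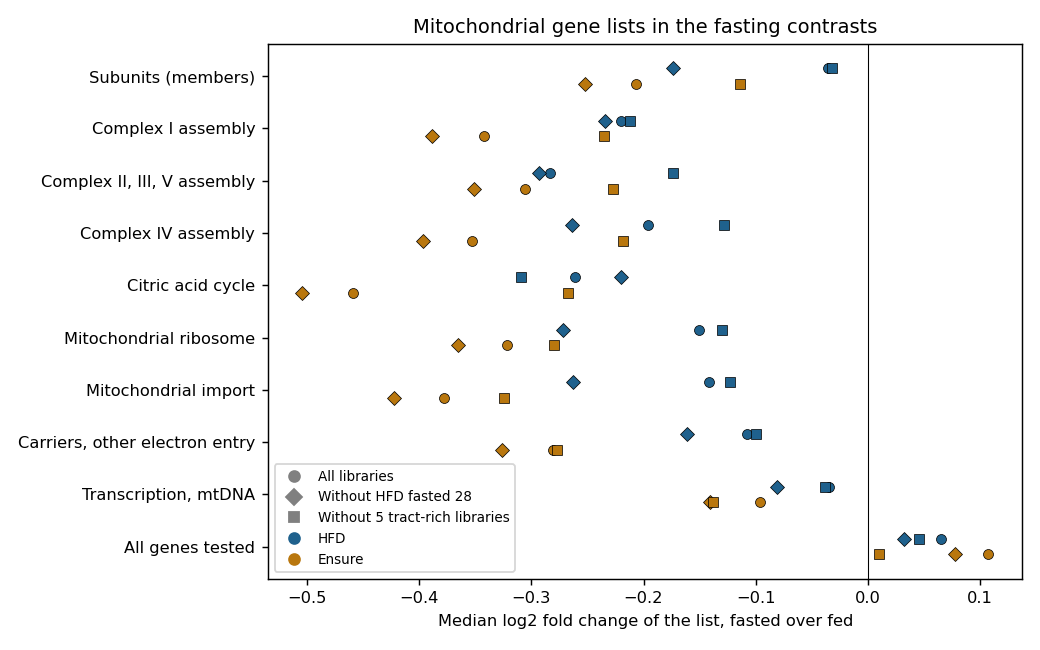
Median log2 fold change, fasted over fed, of the members, 8 lists of other mitochondrial genes and all genes tested, in HFD (blue) and Ensure (brown), from fits of every library (circles), of all but HFD fasted 28 (diamonds) and of all but the 5 tract-rich ones (squares). All member and list medians lie below 0, and the medians of all genes tested above it.

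Among 6 transcription factors and coactivators known to act on these genes, Esrra, the receptor ERRA, fell in Ensure fasting (-0.54 ± 0.15, edgeR adjusted p = 0.0173). In HFD it was at 0.04. Ppargc1a was at -0.34 (adjusted p = 0.395) and Ppargc1b at -0.32 (adjusted p = 0.151) in Ensure. Nrf1, Gabpa and Tfam were at 0.20, -0.03 and -0.12, not called. The mitochondrial RNA polymerase, Polrmt, fell by 0.45. Esrra and Polrmt were the 2 calls of the transcription list, in which 1 of 16 was called without the 5 tract-rich libraries. Whether any of these regulators acts on the members here was not tested.

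Members moved together to different degrees across the 19 libraries, a description in which fed and fasted groups and the libraries that stand apart all enter. The median Pearson correlation between pairs was 0.70 within complex III, 0.70 within complex II (6 pairs), 0.55 within complex I, 0.36 within complex V and 0.24 within complex IV. With the members' median log2 CPM, Ndufv2 (r = 0.94), Ndufb10 (0.93) and Ndufa8 (0.93) were closest, and Cox6b2 (-0.56), Cox8c (-0.45) and Cox7b2 (-0.43), the testis isoforms, farthest. By the same measure, correlation with the median of all members, Sdha was at -0.02, beside 0.70 for Sdhb, 0.69 for Sdhc and 0.47 for Sdhd. Outside the members, the genes with the most similar pattern were Swi5 (0.95), 0610037L13Rik (0.94), Mrpl51 (0.94), Timm8b (0.92) and Rps19bp1 (0.90), of which Mrpl51 belongs to the mitochondrial ribosome and Timm8b to the import machinery.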

How the data were processed

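Messenger RNA of whole perigonadal fat was sequenced in 19 libraries. The submitters' processing notes name HTSeq 0.6.1, TopHat2 2.1, bcl2fastq 1.8.4 and the build mm9; use of strand is not given in the sources used here. Raw read counts for each gene symbol are what the authors deposited. HTSeq's summary lines were kept out of library sizes: reads outside genes were 13.01 to 17.32% of a library, ambiguous ones 0.6955 to 0.8931% and reads not unique 20.67 to 27.7%. Depth was 12.82 to 22.55 M counts; 3202 genes had 0 counts throughout, and floors of 3 counts cover counting error only. The 37 pairs of libraries within groups differed by a chi-square of at least 7.04 per gene, so none was counted as a repeat.

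The test was edgeR 4.0.16 (R 4.3.3) glmQLFit and glmQLFTest, in 1 fit of 19 libraries and 4 groups, with TMM scaling and filterByExpr at a minimum count of 10 (16015 genes), called at a Benjamini-Hochberg adjusted p under 0.05. SE is the log2 fold change over the root of F. Levels are TMM-scaled CPM, and deviations use log2(CPM + 0.5). Alternatives were RLE factors, library size alone, no filter, a minimum count of 50, DESeq2 1.42.0, limma 3.58.1 voom with quality weights, a lane term, fits of the compared groups alone, leaving out libraries, and Ndufa4 with Ndufa4l2 placed in complex I; leaving out HFD fasted 28 in comparisons it is no part of, and all reruns of the pathway lists, were added after seeing the data. Members, lists and the libraries called tract-rich were chosen with earlier results of these data known. Named library by library were, per complex, the 2 members with the smallest p in Ensure fasting and the highest per length, plus Cycs, fixed isoforms and called members; pathway genes were picked after their values were seen. Lengths are medians of protein-coding transcripts in GENCODE M21 (GRCm38), and promoters are RefSeq GRCm38.p6; no genome of mm9 was used. On simulated counts the test found 46% of 2-fold changes for fasting in HFD, 56% in Ensure, 24% for their difference, 42% between fed and 52% between fasted diets, and 19, 14, 3, 22 and 21% of 1.5-fold changes, in 15845 to 15876 genes. The members' changes are mostly smaller than these.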

Additional observations from a re-analysis of the deposited data

Results flagged for a closer look

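There were 88 sets of values (a gene or a median over members, in 1 group of libraries). In 11 the highest or lowest library had a gap to the next, divided by the group's range, past Dixon's 95% critical value. Chance gives about 1 in 20 for independent sets. The sets here share libraries and the medians share genes, so their number cannot be set against that rate. Of the 11, 8 belong to HFD fasted 28. Its median deviation (log2) was 0.259 over all members, where the next library was at -0.207, 0.282 for complex I (next -0.203), 0.165 for complex III (next -0.216), 0.14 for complex IV (next -0.195) and 0.4 for complex V (next -0.166). Atp5g3 was highest there at 255 CPM (next 222 CPM) and Uqcrh at 98.1 CPM (next 75.8 CPM), while Sdha was lowest at 242 CPM (next 404 CPM).

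The other 3 belong to Ensure fed 10, one of the tract-rich libraries. Its median deviation over all members was 0.228 (next 0.148), its Ndufb9 level 175 CPM (next 151 CPM) and its Sdhd level 171 CPM (next 157 CPM).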

How the results depend on the processing

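No member called in Ensure fasting or between fed diets reversed its sign under an alternative. Some medians over members did. The difference of responses went from -0.13 to 0.0965 with voom. Without HFD fasted 23, HFD fasting went from -0.04 to 0.0435 and fasted diets from 0.05 to -0.0278. For Ensure fasting (16 lower, 1 higher), counts of members called lower were 28 with DESeq2, 27 with voom weights, 27 with the compared groups alone, 3 with lane as a term, 4 without the 5 tract-rich libraries and 2 without the 8 rich in tract markers or Cdh16; called higher were 2 with the stricter filter, 2 with DESeq2, 3 with voom, and 0 with lane as a term, without the 5 or without the 8. Of all genes, 12.6% were called lower in Ensure fasting with DESeq2, 16.5% with voom and 13.1% with the compared groups alone. With the lane term these were 3.12%, without the 5 4.13% and without the 8 3.02%. Genes called higher in Ensure fasting were 1602 of 13525 with the stricter filter, 2370 of 16015 with DESeq2 and 2996 of 16015 with voom. They were 260 of 16015 with the lane term, 503 of 15553 without the 5 and 312 of 15257 without the 8. For HFD fasting (0 and 0), called lower were 1 with library size alone, 2 with DESeq2, 34 with voom and 1 without the 8, and called higher 1 with voom, whose median was -0.224. All genes called lower there were 0.805%, 2.95%, 11.3% and 2.39%. In the difference of responses DESeq2 called 1 lower and voom 1 higher, with a median of 0.0965. Between fed diets (3 higher, 0 lower), called higher were 6 with RLE factors, 5 with library size alone, 5 with the stricter filter, 18 with DESeq2, 39 with voom, 0 with lane as a term, 31 with the compared groups alone, 5 without the 5 and 0 without the 8; called lower were 2 with voom and 1 with the compared groups alone. All genes called higher between fed diets were 906 of 16015 with DESeq2, 2420 of 16015 with voom and 1443 of 14838 with the compared groups alone. They were 460 of 16015 with RLE factors, 336 of 16015 with library size alone and 383 of 13525 with the stricter filter. With lane as a term they were 2 of 16015, without the 5 292 of 15553 and without the 8 115 of 15257. Called lower were 3021 of 16015 with voom and 1490 of 14838 with the compared groups alone. Between fasted diets, called higher were 1 with DESeq2, 44 with voom (median 0.233), 1 without the 5 and 2 without the 8. Genes called higher in all were then 728 of 16015, 2073 of 16015, 434 of 15553 and 667 of 15257. The causes were not tested. Of the 17 Ensure calls, 17 were kept with RLE factors, DESeq2, no filter, the stricter filter and without HFD fasted 28, 16 with voom, library size alone or the compared groups alone, 3 with lane as a term, 4 without the 5 and 2 without the 8.

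Leaving out 1 library at a time, Ensure fasting gave 14 (without Ensure fed 1) to 43 (without HFD fasted 28) lower, 0 to 1 higher and a median of -0.258 to -0.193; HFD fasting 0 calls and a median of -0.174 (without HFD fasted 28) to 0.0435 (without HFD fasted 23); the difference 0 calls and -0.243 to -0.0623; fed diets 2 (without Ensure fed 1) to 29 (without HFD fasted 28) higher, 0 lower and 0.163 to 0.237; fasted diets 0 to 3 (without HFD fasted 28) higher, 0 lower and -0.0278 to 0.136. Without Ensure fasted 7 and 8, Ensure fasting called 28 and 25 lower, beside 10.7% and 12.4% of all genes. These shares were 8.18% without Ensure fed 1 and 15.4% without HFD fasted 28. Between fed diets 202 of 15990 genes were called higher without Ensure fed 1 and 1002 of 16406 without HFD fasted 28. Between fasted diets 106 of 16406 genes were called higher without HFD fasted 28. No paired analysis was possible because the replicate numbers in the titles are not shared between groups. Low counts limit the precision for Cycs, Atp5g2, Cox6a2, Cox7b2 and Cox8c, and Ndufs5 could not be tested; how far reads that align in several places lower these counts was not tested.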
